A study of Mus musculus with 10 samples.

Results

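The genes described here encode 9 digestive enzymes and cofactors of the kind made in bulk by the acinar cells of the pancreas, as they were measured in sorted epithelium of the mouse stomach. They were picked from earlier results of the same data, in which several of them were lower in 1 of the sorted fractions, and their names were then matched to the rows of the deposited expression table. All 9 names were found, among 55276 rows. Clps, Cel, Pnlip and Pnliprp2 serve fat digestion, and Try4, Prss1, Ctrb1, Cela2a and Cpa1 are proteases or their precursors. RNA came from the corpus, the main acid-secreting region of the stomach. The mice were of strain C57BL/6 and 6 to 8 weeks old. Every mouse carried the Iqgap3-2A-tdTomato reporter, in which the red fluorescent protein tdTomato is made along with Iqgap3, and was either Runx3 R122C, with an arginine-to-cysteine change in the transcription factor RUNX3, or Runx3 WT. Living EpCAM-positive cells were sorted into IQ3pos, positive for tdTomato and high in Iqgap3, and IQ3neg, negative for tdTomato and low or negative for Iqgap3. The groups were R122C IQ3pos (n = 2), R122C IQ3neg (n = 2), WT IQ3pos (n = 3) and WT IQ3neg (n = 3). Each library pooled 3 mice, except the WT replicate 2 libraries of both fractions, which pooled 4, so spread between libraries is spread between pools. A change of 1 amino acid need not alter a transcript level, and the genotype labels were not checked from expression.

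In the pancreas these enzymes are packed into zymogen granules, many of them as inactive precursors, and are released into the gut on feeding. Pancreatic lipase needs colipase, the Clps product, to work on fat droplets coated with bile salts, and trypsin activates colipase and the other protease precursors by cleavage. Acinar genes are switched on by the transcription factor complex PTF1, built of PTF1A, an E protein and RBPJ or RBPJL, which binds a motif of 2 parts, an E-box (CACCTG) and a TC-box (TTTCCC). The chief cells of the stomach corpus also store digestive proenzymes in granules, above all pepsinogen.

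The start regions of Cel, Try4 and Prss1 are shown because these genes shared the pattern described below and their windows hold parts of that motif. Each is the 250 bases before the gene's start in RefSeq on GRCm38.p6, written 5′ to 3′ on the gene's strand, with E-box and TC-box letters on either strand in capitals. Cel lies on the minus strand (chr2:28563404-28563653), and Try4 (chr6:41302022-41302271) and Prss1 (chr6:41458680-41458929) on the plus strand.
Cel: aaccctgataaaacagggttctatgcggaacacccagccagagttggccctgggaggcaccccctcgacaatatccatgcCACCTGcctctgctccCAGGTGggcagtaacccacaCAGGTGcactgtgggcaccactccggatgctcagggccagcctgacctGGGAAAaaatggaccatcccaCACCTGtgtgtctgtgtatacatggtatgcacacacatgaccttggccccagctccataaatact
Try4: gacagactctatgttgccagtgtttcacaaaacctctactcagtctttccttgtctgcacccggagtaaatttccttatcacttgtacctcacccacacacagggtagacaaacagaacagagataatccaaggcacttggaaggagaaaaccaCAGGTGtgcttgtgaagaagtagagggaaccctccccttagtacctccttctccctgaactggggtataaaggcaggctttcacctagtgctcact
Prss1: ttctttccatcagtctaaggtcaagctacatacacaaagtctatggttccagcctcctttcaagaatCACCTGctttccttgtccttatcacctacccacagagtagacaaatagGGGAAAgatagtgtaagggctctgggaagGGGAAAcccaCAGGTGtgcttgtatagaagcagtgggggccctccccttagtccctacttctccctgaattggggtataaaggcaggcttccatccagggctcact
The Cel window held 4 E-box and 1 TC-box matches, the Prss1 window 2 of each, and the Try4 window 1 E-box match and no TC-box match. The RefSeq table held windows for 8 of the 9 genes, without Clps. Of these, 5 held an E-box match, 5 a TC-box match and 3 (Cel, Prss1 and Cela2a) both. Of 32817 windows of the same length, 17.2% held an E-box match, 21.9% a TC-box match and 3.61% both. The 5 with a TC-box match include Cpa1, which did not share the pattern. Cela2a, Pnliprp2 and Ctrb1 shared it and held matches but are not shown. Outside the set, the windows of Pla2g1b and Pnliprp1, which shared the pattern, held 0 matches of either kind. The Ptf1a window also held 0, and the Rbpjl window held 1 E-box match. A match is a description of letters, not a binding site, and any link to the pattern was not tested. The Try4 and Prss1 windows were identical at 69.2% of aligned positions, with a longest shared run of 20 bases.

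The deposited values are log2 CPM, the log2 of reads scaled to a common library size, and every value below 1 CPM is listed at 0. A listed 0 is thus a level below 1 CPM and not an absence of reads. Library totals, read back from the whole-read steps of the values, ran between 47432129 and 264816271 reads, so that 1 CPM stood for 47.4 to 264.8 reads. Between 11879 and 14811 genes per library were listed above 0. The WT replicate 1 pair was the shallowest, and WT IQ3neg replicate 1 stood apart in its share of Clps. Results that rest on these libraries are given with and without them. WT IQ3neg replicate 1 was also low in general epithelial genes. Epcam was 199 CPM there, against 427 to 519 CPM in the other IQ3neg libraries. Krt8 was 336 CPM against 1388 to 1820, and Krt18 593 CPM against 2128 to 2436. The cause was not tested. Markers of the corpus were present in both fractions. Summed over 6 parietal cell genes, levels were 5062 to 8215 CPM in the IQ3pos libraries and 750 to 3264 CPM in the IQ3neg libraries. Summed over 5 pit cell genes they were 15212 to 19949 CPM in IQ3pos and 8274 to 12879 CPM in IQ3neg. These sums hide opposed genes. Psca, alone of the 5 pit genes, was higher in IQ3neg, at 3802 to 8285 CPM in R122C and 6045 to 9972 CPM in WT. In IQ3pos it stood at 2118 to 2796 CPM in R122C and 2227 to 2371 CPM in WT. Car2 was the highest parietal gene in every library and alone of the 6 did not overlap between fractions. Atp4a, Atp4b, Kcne2, Slc26a7 and Aqp4 overlapped. In R122C, Aqp4 was a listed 0 in both IQ3pos libraries, against 4.07 and 4.31 CPM in IQ3neg. Of 8 markers of pancreatic islet cells, 6 were listed at 0 in all 10 libraries, Ins1 and Ins2 among them, and Iapp and Ppy together reached at most 1.16 CPM in IQ3pos and 8.25 to 48.9 CPM in IQ3neg. Of the 9 pancreatic-type genes themselves, 8 were listed above 0 in at least 2 libraries and passed the filter for testing, and Cpa1 did not.

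The fat-digesting set was led by Clps, which encodes colipase (chr17:28558149-28560766, minus strand). Clps stood at log2 CPM 13.43 and 11.73 in R122C IQ3pos and 16.87 and 17.04 in R122C IQ3neg. In WT mice it stood at 14.90, 12.74 and 12.24 in IQ3pos and 18.35, 16.58 and 16.56 in IQ3neg. Every IQ3pos library was below every IQ3neg library, and the highest value in each WT fraction was that of replicate 1. Group means were 12.58 ± 1.20 in R122C IQ3pos against 16.96 ± 0.13 in R122C IQ3neg (SD, n = 2 each), a difference of -4.37. In WT they were 13.29 ± 1.41 in IQ3pos against 17.16 ± 1.03 in IQ3neg (SD, n = 3 each), a difference of -3.87. Within a replicate number, Clps CPM was between 10.8- and 39.7-fold lower in IQ3pos. Because the genes were picked with this contrast in view, the differences between fractions are descriptions and carry no test. In RNA from a bulk sort, fewer cells of a type and less RNA per cell cannot be told apart.

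Cel encodes the bile salt-activated carboxyl ester lipase (chr2:28555795-28563403, minus strand). Its log2 CPM was 5.08 and a listed 0 in R122C IQ3pos, against 10.74 and 9.17 in R122C IQ3neg. In WT it was 3.88, a listed 0 and 2.49 in IQ3pos, against 9.14, 10.05 and 9.26 in IQ3neg. Ranges of the fractions did not overlap. In the 3 replicate numbers with Cel listed in both fractions, its CPM was 38.3- to 108.7-fold lower in IQ3pos. The libraries at 0 were R122C IQ3pos replicate 2 and WT IQ3pos replicate 2.

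Pnliprp2, a lipase related to pancreatic lipase that also acts on galactolipids (chr19:58759719-58777534, plus strand), was 4.59 and 5.64 on the log2 CPM scale in R122C IQ3pos against 8.73 and 8.13 in R122C IQ3neg. In WT it was 5.74, 5.01 and 4.18 in IQ3pos against 6.61, 8.44 and 8.49 in IQ3neg. Ranges of the fractions did not overlap, but WT replicate 1 came close, with a 1.83-fold difference where the largest within a replicate number was 19.8-fold. In that IQ3neg library Pnliprp2 was lowest while Clps was highest. Pnlip, the classical pancreatic triglyceride lipase that colipase serves (chr19:58652498-58681788, plus strand), stayed near the floor. It was a listed 0 and 0.42 in R122C IQ3pos against 2.13 and a listed 0 in R122C IQ3neg. It was a listed 0 in all 3 WT IQ3pos libraries, against a listed 0, 0.70 and 1.66 in WT IQ3neg. Its fractions overlapped. The Pnlip to Pnliprp2 cluster, with Pnliprp1 between them, spans 125.04 kb.

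Among the proteases, the highest level was that of Try4, which encodes a trypsinogen, the precursor of trypsin (chr6:41302269-41305532, plus strand). Try4 was 3.16 and 1.57 on the log2 CPM scale in R122C IQ3pos against 8.40 and 7.69 in R122C IQ3neg. In WT it was 4.37, 3.08 and 3.96 in IQ3pos against 8.42, 8.91 and 7.81 in IQ3neg. Ranges of the fractions did not overlap, and within a replicate number CPM was 14.4- to 69.7-fold lower in IQ3pos. Prss1, another trypsinogen of the same cluster (chr6:41458932-41463786, plus strand), was a listed 0 in all 5 IQ3pos libraries. In IQ3neg it was 2.11 and 1.19 in R122C and 2.96, 2.97 and 2.90 in WT. The 3 WT IQ3neg values lay close together and above both R122C IQ3neg values.

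The trypsinogens are near copies, so reads can be split between them, and how such reads were counted is not stated in the sources used here. The annotated Try4 and Try5 transcripts were identical at 97.1% of aligned positions with a shared run of 274 bases, and Try4 and Prss1 at 91.0% with a run of 98. Values of Try4 and Prss1 are therefore uncertain between copies. Try10, another trypsinogen 84.5% identical to Try4, had the same order of fractions, at 1.79 and 7.42 CPM in R122C IQ3pos against 91.3 and 173 CPM in R122C IQ3neg, and 6.48 to 11.6 CPM in WT IQ3pos against 133 to 268 CPM in WT IQ3neg. Try5 had log2 CPM values of 0 as listed in both R122C IQ3pos libraries against 0.14 and 3.14 in R122C IQ3neg, and a listed 0, 1.88 and 2.41 in WT IQ3pos against 0.81, 4.13 and 4.22 in WT IQ3neg, and its fractions overlapped. Prss2 was listed above 0 in 1 of the 10 libraries. Pnlip, Pnliprp1 and Pnliprp2 were 62.2% to 64.1% identical with shared runs of at most 23 bases.

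Ctrb1 encodes chymotrypsinogen B (chr8:111686519-111691010, minus strand). It was a listed 0 in both R122C IQ3pos libraries against 2.65 and 1.89 in R122C IQ3neg, and a listed 0, 0.24 and a listed 0 in WT IQ3pos against 1.54, 0.87 and 2.53 in WT IQ3neg. Cela2a, which encodes a pancreatic elastase (chr4:141814962-141826160, minus strand), was a listed 0 and 2.08 in R122C IQ3pos against 4.84 and 5.08 in R122C IQ3neg. In WT it was a listed 0 in all 3 IQ3pos libraries against 4.53, 4.74 and 5.22 in IQ3neg. The fractions did not overlap for either gene. Exons of Cela2a overlap Ctrc on the same strand and Casp9 on the opposite strand, so its value is uncertain. Cpa1, which encodes carboxypeptidase A1 (chr6:30639218-30645363, plus strand), was a listed 0 in all 10 libraries.

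**Figure D1:**
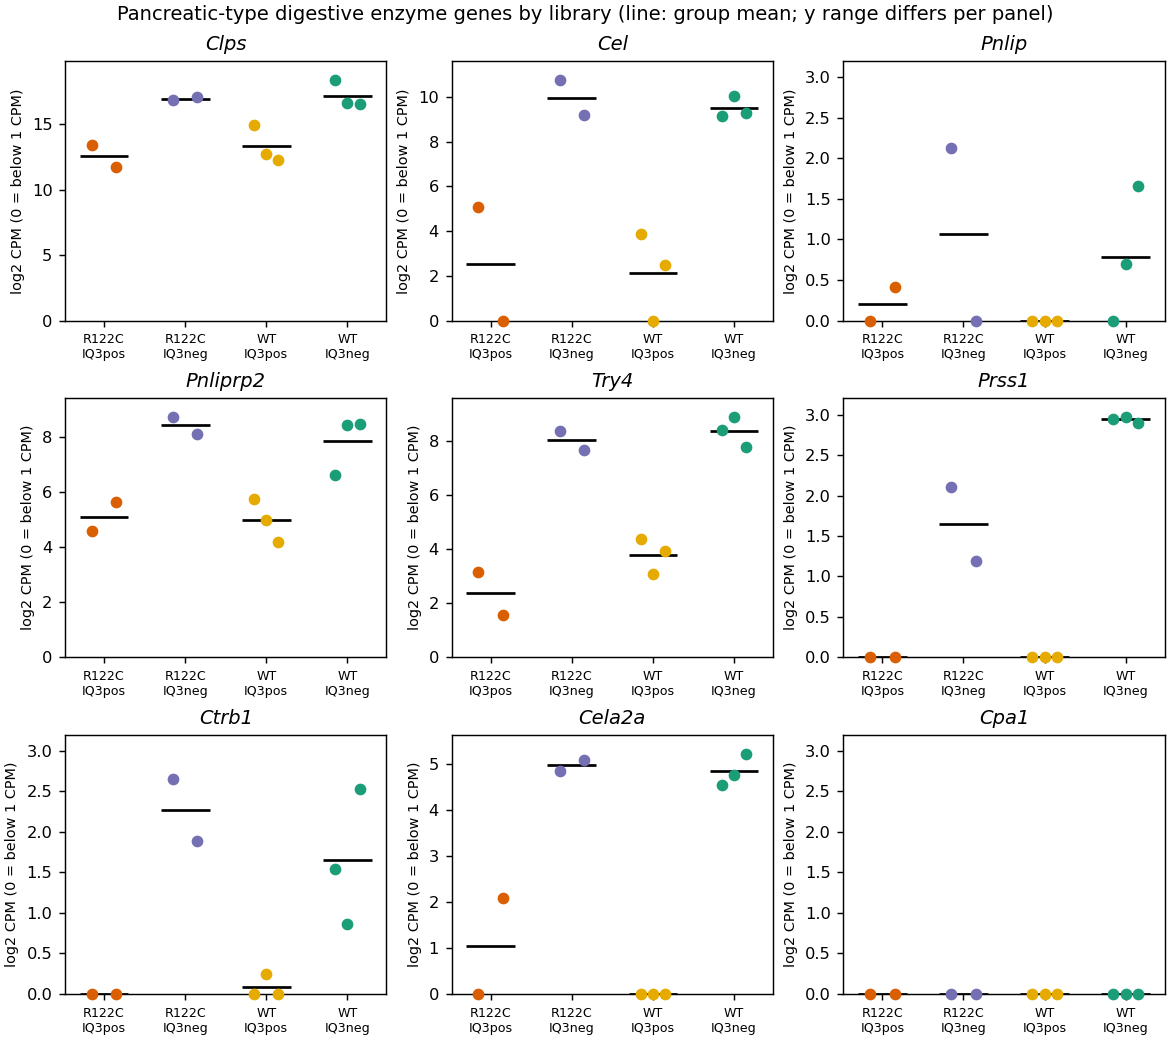
Level of each of the 9 genes in the 10 libraries, in log2 CPM on the y axis (range differs per panel, 0 meaning below 1 CPM), with points for libraries and lines for group means. For 7 of the 9 genes every IQ3pos point lies below every IQ3neg point, while Pnlip overlaps and Cpa1 is at 0 throughout.

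Counted over the set, 7 of the 9 genes had every IQ3pos library below every IQ3neg library. The share of all 17155 tested genes with that order was 3.18% over the 10 libraries, 8.07% within WT and 14.6% within R122C. The genes were picked on this contrast, so the count is a description. The 7 genes kept the order when both WT replicate 1 libraries were left out.

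Per kilobase of exon, levels in IQ3neg covered a wide range. The median over the 5 IQ3neg libraries was 195468 CPM per kb for Clps (158006 to 545424). Try4 had a median of 421 CPM per kb (258 to 599), Cel of 291 (268 to 813) and Pnliprp2 of 222 (62.1 to 271), and the ranges of neighbours in this order overlapped. Cela2a followed at 16.6 CPM per kb (13.4 to 21.6), below and apart from them. Prss1 had 9.30 (2.84 to 9.76) and Ctrb1 4.22 CPM per kb (2.08 to 7.17), with overlapping ranges, and Pnlip had 0.74 (0 to 1.99). Colipase transcript was thus the top of the set by far, while the lipase it serves in the pancreas was at the bottom of those listed.

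Clps also stood out among all genes. It took 1.05% and 0.323% of the listed CPM in R122C IQ3pos against 11.5% and 12.9% in R122C IQ3neg, and 2.91%, 0.648% and 0.460% in WT IQ3pos against 32.1%, 9.33% and 9.23% in WT IQ3neg. It ranked first of all genes in each of the 5 IQ3neg libraries. In IQ3pos it ranked 4 and 28 in R122C, and 3, 7 and 15 in WT. Wilson 95% intervals of these shares were at most 0.0247 percentage points wide and reflect the counting of reads alone. Copies made by PCR were counted with no molecular identifier, so these intervals understate the error in counting molecules. The other 8 genes together took 0.0063% and 0.0055% in R122C IQ3pos against 0.242% and 0.105% in R122C IQ3neg, and 0.0085%, 0.0040% and 0.0037% in WT IQ3pos against 0.100%, 0.184% and 0.119% in WT IQ3neg. WT IQ3neg replicate 1, with the most Clps, had the smallest IQ3neg share on the other 8. Clps is part of the total, so its 32.1% in that library lowers the share left to the other 8. The mean Clps share in WT IQ3neg was 16.9% with that library and 9.28% without it.

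A share of this size weighs on every other value of a library, because CPM is relative to the total. Leaving Clps out of the totals raised all other genes by 0.56 on the log2 scale in WT IQ3neg replicate 1, by 0.14 to 0.20 in the other IQ3neg libraries and by at most 0.04 in the IQ3pos libraries. Pla2g1b, which encodes the pancreatic-type secreted phospholipase A2, took 0.364% and 0.182% of the listed CPM in R122C IQ3pos against 5.38% and 3.95% in R122C IQ3neg. In WT it took 0.994%, 0.218% and 0.285% in IQ3pos against 9.57%, 3.12% and 4.37% in IQ3neg. With Clps it made up 41.7% of WT IQ3neg replicate 1, 12.4% and 13.6% of the other WT IQ3neg libraries, and 16.8% and 16.9% of the R122C IQ3neg libraries.

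**Figure D2:**
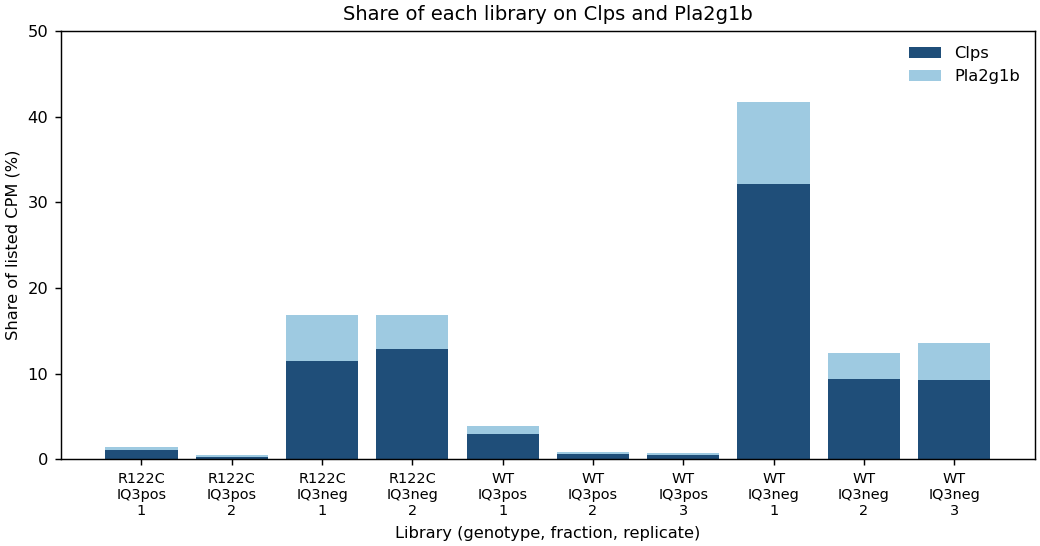
Percentage of the listed CPM of each library on Clps (dark) and Pla2g1b (light, stacked), with 1 bar per library. The Clps part is 9.23% to 32.1% in the 5 IQ3neg libraries and 0.323% to 2.91% in the 5 IQ3pos libraries, and WT IQ3neg replicate 1 is the tallest bar.

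Pla2g1b was also the gene with the profile most like that of Clps. Likeness was the root-mean-square difference of log2 CPM over the 10 libraries, each gene centred on its own mean, and it was 0.36 for Pla2g1b. The CPM ratio of Clps to Pla2g1b was 1.62 to 2.97 in IQ3pos (median 2.88) and 2.11 to 3.36 in IQ3neg (median 2.99), while within a replicate number Clps was at least 10.8-fold and Pla2g1b at least 9.5-fold lower in IQ3pos. The next profiles were those of Mir6969 (0.58), AI593442 (0.62), Cpe (0.63), Igkj2 (0.73), Rims2 (0.74), Smarca1 (0.74) and Msi1 (0.78). Mir6969 (chr17:28558441-28558501, minus strand) lies in an intron of Clps and begins at the base after a Clps exon that ends at 28558440, and whether its reads come from Clps transcripts was not tested. Msi1 ends 10.56 kb before the start of Pla2g1b on chromosome 5. Of the pancreatic-type set itself, Try4 was closest to Clps at 0.92, with 31 genes closer, and Cel was farthest at 2.12, with 3322 genes closer. Prss1, Pnliprp2, Cela2a, Ctrb1 and Pnlip lay between, at 1.30, 1.35, 1.37, 1.54 and 2.07. These profiles contain the difference between fractions that led to the choice of the genes, and the values near the floor add to the distance.

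The R122C change was not accompanied by a called difference in any of the 8 tested genes, in either fraction, although 4 of the 8 had little or no value to test in IQ3pos. R122C and WT libraries were compared with limma, a linear model with moderated variances, with Benjamini-Hochberg adjustment over 17155 genes. In IQ3neg 0 of 8 passed. In IQ3pos 0 of 8 passed too, but Prss1 was a listed 0 in all 5 libraries there and Pnlip, Ctrb1 and Cela2a in 4 of 5, so that Clps, Cel, Pnliprp2 and Try4 are the genes with values to compare. At an unadjusted p under 0.05, 1 of 8 was counted in IQ3pos (Try4) and 0 in IQ3neg. Over all genes 0% were called in either fraction, with 930 genes at an unadjusted p under 0.05 in IQ3pos and 629 in IQ3neg. In IQ3neg the median difference was 0.20 over the 8 genes and 0.07 over all genes.

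For Clps, the R122C minus WT difference in log2 CPM was -0.71 ± 0.94 (SE) in IQ3pos, with a 95% interval of -2.76 to 1.34 (limma adjusted p = 0.991). In IQ3neg it was -0.21 ± 0.94, with an interval of -2.26 to 1.84 (limma adjusted p = 1). Both intervals include a level 4-fold lower in R122C. The sign turned without WT replicate 1 (0.09 in IQ3pos and 0.39 in IQ3neg), without R122C IQ3pos replicate 2 (0.14 in IQ3pos) and with the title code as a term (0.24 in IQ3pos and 0.74 in IQ3neg). The share of listed CPM on Clps averaged 0.686% in R122C against 1.34% in WT in IQ3pos (two-sided exact permutation test, p = 0.8, n = 2 and 3). In IQ3neg it averaged 12.2% in R122C against 16.9% in WT (p = 1.0 by the same exact permutation test). The direction turned without WT replicate 1, when the WT mean was 0.554% in IQ3pos and 9.28% in IQ3neg. With 10 regroupings the smallest p this test can give is 0.2.

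Try4 had the lowest p of the set in IQ3pos, at 3.16 and 1.57 in R122C against 4.37, 3.08 and 3.96 in WT. The difference was -1.44 ± 0.60 (SE; 95% interval -2.75 to -0.12; adjusted p = 0.882 by limma), and the groups overlapped, since the higher R122C value exceeded the lowest WT value. In IQ3neg the Try4 difference was -0.33 (interval -1.64 to 0.98). Prss1 in IQ3neg was lower in both R122C libraries than in all 3 WT libraries, with a difference of -1.29 ± 0.68 (SE; interval -2.78 to 0.19; adjusted p = 1 by limma). For Cel the intervals were -2.42 to 3.25 in IQ3pos and -2.36 to 3.31 in IQ3neg, the widest of the set. Pnliprp2 differed by 0.14 (interval -1.27 to 1.55) in IQ3pos and 0.59 (-0.82 to 1.99) in IQ3neg.

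**Figure D3:**
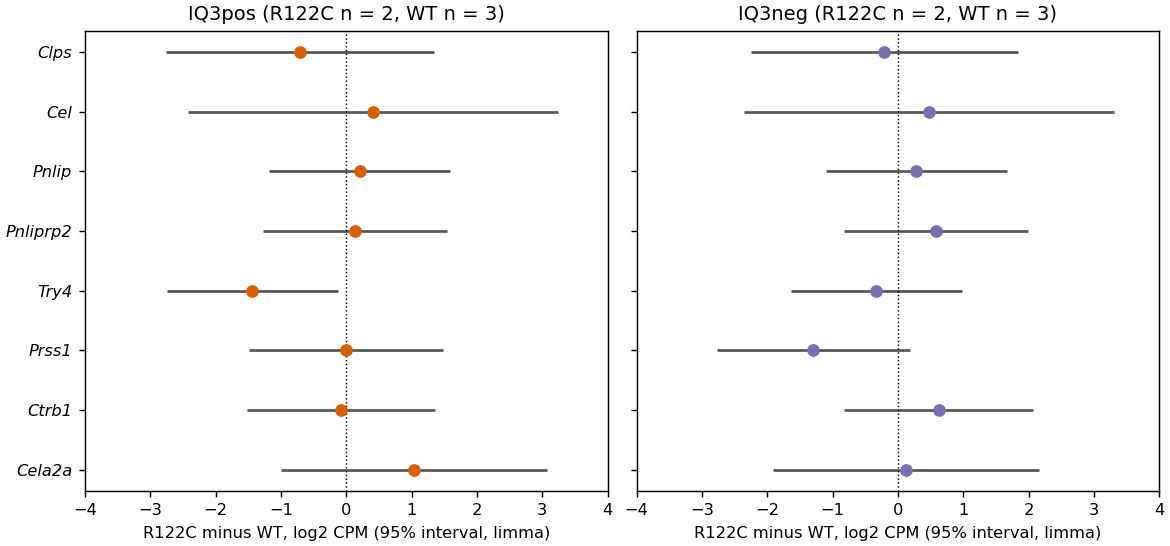
R122C minus WT difference of the 8 tested genes in log2 CPM (x axis) with 95% intervals from limma, in IQ3pos (left, n = 2 and 3) and IQ3neg (right, n = 2 and 3). All intervals cross 0 except that of Try4 in IQ3pos (-2.75 to -0.12), whose adjusted p was 0.882. Prss1 was a listed 0 in all IQ3pos libraries, so its point there is no measurement.

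Library titles carry a code of unstated meaning, and 1 code is shared by the genotypes, in R122C replicate 1 and WT replicate 2. Within it, R122C minus WT was 0.69 for Clps, 0.09 for Try4 and -0.42 for Pnliprp2 in IQ3pos, and 0.29, -0.51 and 0.29 for the same genes in IQ3neg. Cel in IQ3pos was at 5.08 in that R122C library against a listed 0 in the WT library. With 1 library per genotype and fraction under the code these values have no replicate check. They gave the opposite sign to the pooled difference for Clps in both fractions, and for Try4 and Pnliprp2 in IQ3pos.

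The difference between fractions was compared between genotypes as an interaction, the R122C difference minus the WT difference. For Clps it was -0.50 (95% interval -3.40 to 2.39), for Try4 -1.10 (-2.96 to 0.75), for Cel -0.06 (-4.07 to 3.95) and for Prss1 1.29 (-0.80 to 3.39). Prss1 was a listed 0 in all 5 IQ3pos libraries, so its value is its IQ3neg genotype difference with the sign turned. Pnlip, Ctrb1 and Cela2a were a listed 0 in 4 of the 5, so their interactions depend on the floor. By limma 0 of 8 genes passed, 0 had an unadjusted p under 0.05, and adjusted p rounded to 1 for each. Over all genes 0% were called and 444 had an unadjusted p under 0.05. The interaction uses the same libraries as the comparisons of genotypes, so it is not separate evidence.

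Other pancreatic acinar genes, outside the set of 9, were also compared between the fractions with limma. They were chosen with earlier results of these data known, so their counts are not independent evidence of a direction. Ctrc and Try10 share sequence with Cela2a and Try4 of the set. Of 43 genes, 28 passed the filter on low values, and 9 of these 28 were above 0 in fewer than 2 IQ3pos libraries, so that they passed through IQ3neg. In WT, 9 of the 28 were lower in IQ3pos than in IQ3neg, 0 were higher and 19 did not pass (limma, adjusted p under 0.05), while 1.42% of all 17155 genes were called lower and 0.606% higher (2.03% in either direction). The 9 include Amy2b and Ctrc, which passed the filter through IQ3neg and had to differ, and 7 remain without them. The median difference of the 28 was -1.44, against 0.16 over all genes. In R122C, 3 were lower, 0 higher and 25 did not pass, while 0.291% of all genes were called lower and 0.0291% higher (0.321% in either direction), and the medians were -1.77 and 0.02. The 9 calls fell to 4 without both WT replicate 1 libraries, 3 without WT IQ3pos replicate 2, 5 without WT IQ3pos replicate 3 and 3 without WT IQ3neg replicate 2. Over all genes the 348 calls in WT fell in the same fits, to 276, 115, 118 and 79. The 3 calls in R122C fell to 1 without R122C IQ3pos replicate 2 and to 0 without either R122C IQ3neg library, a fit in which the lone library left was assumed to vary like the others. Over all genes the 55 calls in R122C became 14 without R122C IQ3pos replicate 2, 2 without R122C IQ3neg replicate 1 and 5 without R122C IQ3neg replicate 2.

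By role, 3 of 6 tested genes for lipids, starch and RNA fell in WT IQ3pos, out of 10 in the table. The 3 include Amy2b, which passed the filter through IQ3neg and had to differ. For this role and those below, 1.42% of all genes were called lower in WT IQ3pos. Pnliprp1, a relative of pancreatic lipase, was 5.27 and 2.49 in R122C IQ3pos against 10.74 and 10.19 in R122C IQ3neg, and 5.39, 3.40 and 3.66 in WT IQ3pos against 10.05, 10.09 and 9.95 in WT IQ3neg. It fell by 6.59 in R122C (SE 0.81, adjusted p = 0.00493) and fell by 5.88 in WT (SE 0.66, adjusted p = 0.00141, limma). Pla2g1b fell by 3.67 in WT (SE 0.67, limma adjusted p = 0.0191), and its R122C difference of -4.15 had an adjusted p of 0.0691 by limma. The pancreatic amylase gene Amy2b was a listed 0 in all 5 IQ3pos libraries, against 2.71 and 3.33 in R122C IQ3neg and 3.47, 3.66 and 3.54 in WT IQ3neg. The 4 amylase copies Amy2a1 to Amy2a4 were listed at 0 in all 10 libraries, although amylase copies are alike and their reads may be split or dropped.

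Of 7 tested proteases, out of 12 in the table, 2 fell in WT IQ3pos. The 2 include Ctrc, which passed the filter through IQ3neg and had to differ. Try10 fell by 5.11 in R122C (SE 0.73, adjusted p = 0.0131) and fell by 4.48 in WT (SE 0.60, adjusted p = 0.00338, limma). Ctrc, a chymotrypsinogen, was a listed 0 and 0.79 in R122C IQ3pos against 3.71 and 3.80 in R122C IQ3neg, and a listed 0 in all WT IQ3pos libraries against 3.29, 3.52 and 3.87 in WT IQ3neg. Its exons overlap those of Cela2a on the same strand, so its value is uncertain, and its call in WT was lost with 7 of the 10 libraries left out in turn. The elastase gene Cela1 went the other way in its values, at 6.00, 7.45 and 7.10 in WT IQ3pos against 1.40, 6.07 and 6.13 in WT IQ3neg, and did not pass (limma adjusted p = 0.255). Klk1, a tissue kallikrein, was listed in all 10 libraries, with a WT difference of -0.71 (limma adjusted p = 0.457). Cela3a and Ctrl were listed at 0 in all 10.

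Of 7 tested granule and other acinar genes, out of 12, 3 fell in WT IQ3pos. Tmed6, which encodes a protein of the family of cargo receptors in the early secretory pathway, fell by 2.65 in R122C (SE 0.46, adjusted p = 0.0353) and fell by 2.69 in WT (SE 0.37, adjusted p = 0.00423, limma). Reg1, a secreted lectin-like protein, fell by 4.36 in WT and Cckar, the receptor for cholecystokinin, fell by 2.75 (limma adjusted p = 0.0256 and 0.0367). The granule gene Sycn, Reg2, Serpini2 and Aqp12 were listed at 0 in all 10 libraries.

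Of 8 tested regulators, out of 9, Ptf1a fell in WT IQ3pos. Ptf1a was 1.83 and a listed 0 in R122C IQ3pos against 6.90 and 4.35 in R122C IQ3neg, and a listed 0, a listed 0 and 1.79 in WT IQ3pos against 6.31, 6.75 and 5.70 in WT IQ3neg (limma adjusted p = 0.150 in R122C and 0.0110 in WT). The fractions did not overlap. Its partner Rbpjl was a listed 0 and 2.21 in R122C IQ3pos against 6.16 and 4.03 in R122C IQ3neg, and a listed 0, a listed 0 and 3.76 in WT IQ3pos against 5.63, 5.91 and 5.19 in WT IQ3neg, and did not pass (limma adjusted p = 0.365 in R122C and 0.0681 in WT). Nr5a2, another regulator of acinar genes, was listed at 0 in all 10 libraries. Gata4, Gata6 and Xbp1 were listed in all 10 and did not pass.

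**Figure D4:**
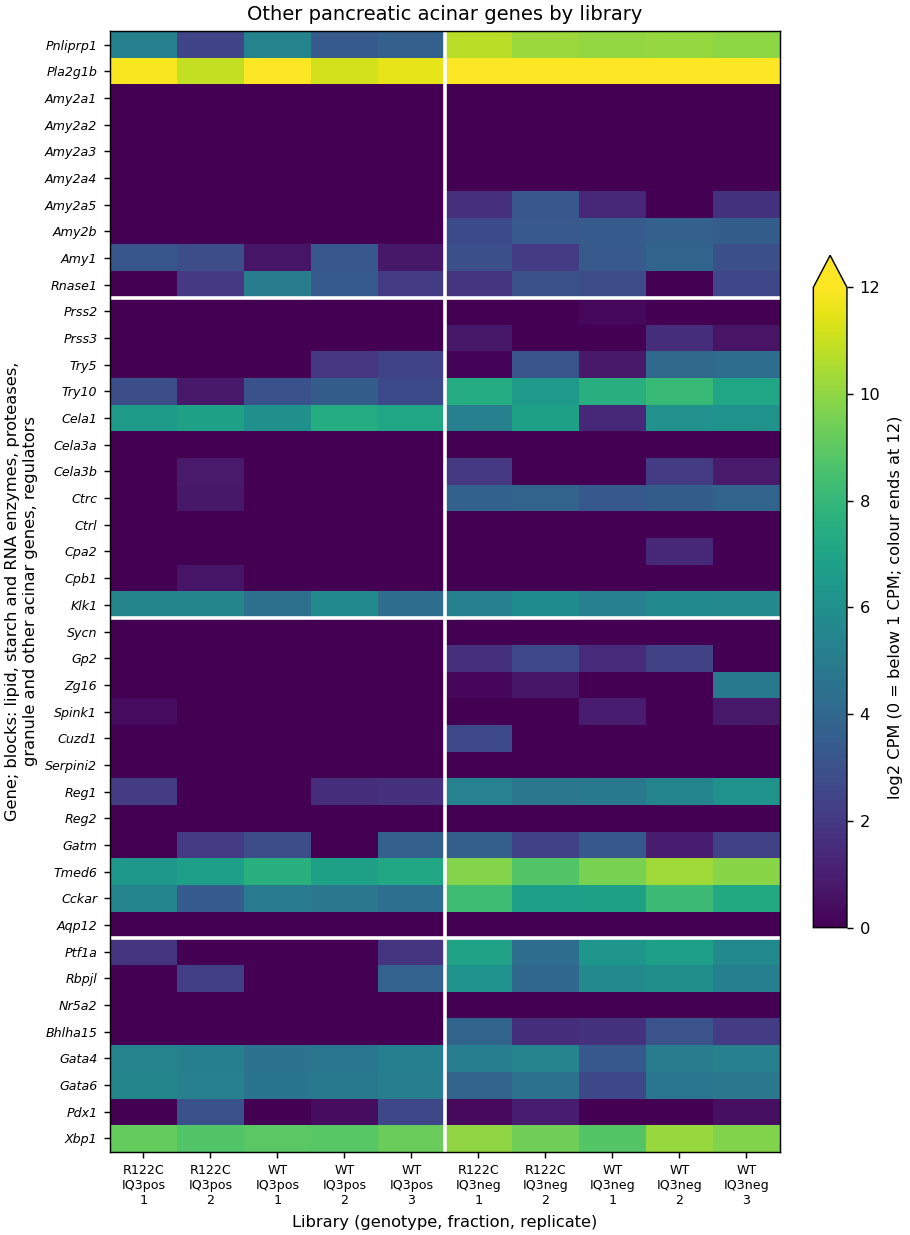
Level of 42 other pancreatic acinar genes (rows, in blocks by role) in the 10 libraries (columns, IQ3pos left and IQ3neg right), coloured by log2 CPM with 0 meaning below 1 CPM and the colour scale ending at 12. Pnliprp1, Try10, Tmed6, Ptf1a and Rbpjl are brighter in all IQ3neg columns, Pla2g1b is bright throughout, and many rows, such as Amy2a1 to Amy2a4, Ctrl and Sycn, are at 0.

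Summed levels of markers of other gastric cell types stood in the same order in the 2 lists that follow. The 8 enteroendocrine markers summed to 208 to 346 CPM in R122C IQ3pos against 11196 to 14991 CPM in R122C IQ3neg. In WT they summed to 204 to 488 CPM in IQ3pos against 11915 to 19899 CPM in IQ3neg. By limma 7 of the 8 were called lower in IQ3pos in each genotype, against 0.291% of all genes in R122C and 1.42% in WT. Gcg and Scg2 were a listed 0 in 4 of the 5 IQ3pos libraries and passed the filter through IQ3neg. With 1 marker not called, at least 1 of them is among the 7. The 6 chief cell markers, of which Bhlha15 is also on the list of acinar regulators, summed to 13219 to 15019 CPM in R122C IQ3pos against 45736 to 125740 CPM in R122C IQ3neg, and to 11992 to 18402 CPM in WT IQ3pos against 69588 to 82348 CPM in WT IQ3neg. Of 5 tested chief markers 1 was called lower in each genotype, and Lipf was listed at 0 in all 10 libraries. The sums of the 4 tuft cell markers overlapped between fractions, at 21.2 to 141 CPM in IQ3pos against 121.7 to 681 CPM in IQ3neg. The overlap, of 141 and 121.7 CPM, lay in the WT replicate 1 pair, and without that pair the sums did not overlap. In R122C they were 38.9 to 62.6 CPM in IQ3pos against 380 to 669 CPM in IQ3neg. By limma 1 of the 4 was called lower in WT IQ3pos and 0 in R122C IQ3pos. The CPM ratio of Clps to the somatostatin gene Sst was 43.8 to 276 in IQ3pos and 18.3 to 39.0 in IQ3neg. Its ratio to the pepsinogen gene Pgc was 0.278 to 2.71 in IQ3pos and 1.45 to 9.16 in IQ3neg. Chief markers differed in their IQ3pos minus IQ3neg log2 CPM, which for Clps was -4.37 in R122C and -3.87 in WT. In the same order it was -2.04 and -1.82 for Pgc, and -0.86 and -0.40 for Pga5. For Chia1 it was -4.55 and -3.41, and for Cblif -3.71 and -3.62. The ratios to Sst and Pgc were less steady than that to Pla2g1b. Pla2g1b was picked as the gene most like Clps, so that order was set by the choice. The part of these cell types in the differences between fractions was not tested.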

How the data were processed

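RNA of sorted stomach epithelium was sequenced in 10 libraries, grouped by the titles in the labels. The submitters' processing notes name the tools STAR (2.7.1a), Subread (2.0.0), featureCounts and edgeR, and the build GRCm38 (mm10). Strandedness, annotation and scaling are not stated in the sources used here. The authors deposited log2 CPM values for 55276 genes, with values below 1 CPM listed at 0 and no pseudocount. Summed over the table, the listed CPM came to 1036666 to 1053761 per library, and why this exceeds the base of the unit is not stated. All values above 0 were whole reads within 0.05 read, which gave the library totals. Symbols turned into dates stood in 26 rows and are not named. GENCODE annotation of GRCm38 matched 53362 of the symbols and gave coordinates and exon lengths.

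Tests used limma 3.58.1 in R 4.3.3 on the log2 values as deposited, with the 10 libraries in 1 fit of 4 group means and variances moderated along a trend with intensity (residual degrees of freedom 6, prior 6.01). Genes listed above 0 in at least 2 libraries entered. Tests were two-sided, p-values were adjusted by Benjamini and Hochberg's method for each comparison, and the threshold was 0.05. The fit was tested on simulated data. Each p-value reflects the spread between pools of mice. The fit takes the 10 libraries as independent, although same-numbered libraries of a genotype may share mice, which would leave 5 pools. Differences that involve a listed 0 depend on the floor. Shares are of the summed listed CPM.

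The members and lists were chosen with earlier results of these data known. Named genes are the 9 members, the genes of 4 lists of other pancreatic acinar genes, markers of cell types and the 8 genes with profiles most like Clps. Values of 1 listed gene are not reported here, though it enters the counts. Marker lists of neck (4 genes) and general epithelial cells (4 genes) were also computed: they summed to 9583 to 15143 and 3057 to 5184 CPM in IQ3pos, and to 1768 to 12476 and 1187 to 4978 CPM in IQ3neg. Alternatives were log2(CPM + 1), other filters, centring, totals without Clps, a replicate block, the title code as a term, no intensity trend and left-out libraries.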

Additional observations from a re-analysis of the deposited data

How the results depend on the processing

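For the 8 tested pancreatic-type genes, 0 passed in each comparison of genotypes and in the interaction under 9 other settings. The same held with each WT library left out. Over these settings and all 10 left-out libraries, 52 of 453 differences turned sign, reached 0 or left 0. The last kind is Prss1 in IQ3pos, whose difference of 0 became -3.96e-17 to 0.213, the former being of rounding size. The 7 genes with non-overlapping fractions stayed at 7 under log2(CPM + 1), centring, totals without Clps and all left-out libraries. With each library left out, mean Clps shares were 0.323% to 1.05% in R122C IQ3pos, 11.5% to 12.9% in R122C IQ3neg, 0.554% to 1.78% in WT IQ3pos and 9.28% to 20.7% in WT IQ3neg.

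Of the other pancreatic genes, 5 were lower in R122C IQ3pos when libraries were centred on their medians, against 3, and 4 were lower in WT IQ3pos without both WT replicate 1 libraries, against 9. The cause was not tested. With 1 library left out at a time, the counts were 0 to 4 in R122C and 3 to 9 in WT, and fewer libraries were then tested. In WT, Pnliprp1, Try10 and Tmed6 passed under all 19 alternatives, with adjusted p of at most 0.0192, 0.0363 and 0.0377 by limma, while Pla2g1b reached 0.119, Ptf1a 0.0646, Amy2b 0.0980, Ctrc 0.110, Reg1 0.0930 and Cckar 0.133. In R122C, Pnliprp1 reached 0.146, Try10 0.224 and Tmed6 0.355.

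Over all genes, the count lower in WT IQ3pos was 244 of 348 called, and 388 of 898 with centring, where the split turned to 510 higher. In WT 191 genes were called with no filter, 600 with a filter of 5 libraries, 539 without Clps in the totals and 674 with the block. With 1 library left out at a time, 79 to 455 genes were called in WT and 2 to 73 in R122C. In R122C the count of 55 became 87 with centring, 90 with the block, 146 with no trend, 31 with the title code and 105 without the WT replicate 1 pair. Comparisons of genotypes called 0 to 7 genes under these settings. Centring moved the median difference of all genes between fractions to 0.19 in R122C, against 0.02, and totals without Clps moved it to 0 in WT, against 0.16.

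The labels do not say that libraries with the same number share mice. Deviations of same-numbered IQ3pos and IQ3neg libraries correlated at 0.162, 0.115 and 0.0808 in WT and 0.105 in R122C over genes. Pairs of unlike number in WT correlated at -0.141 to 0.0689, below each same-numbered WT pair. In R122C they stood at -0.105, a value fixed by the same-numbered one with 2 libraries per fraction. Since the same-numbered values were not all above 0.1, the replicate block was kept as an alternative. With it, 10 other pancreatic genes were lower in WT and 4 in R122C, and 0 pancreatic-type genes passed between genotypes.

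Depth did not limit the high genes, whereas Pnlip, Prss1, Ctrb1 and Cpa1 lie near or under the floor of 1 CPM, below which the table gives no level.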
